A study of Macaca mulatta with 304 samples.

Results

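The 10 genes described here are OAS1, OAS2, OAS3, OASL, MX1, MX2, ISG15, USP18, HERC5 and EIF2AK2, which belong to the antiviral arm of the interferon response. They were chosen by symbol, and each matched a single row of the 21070 genes in the count table. All 10 passed the low-count filter, which kept 13751 genes.

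Cells that sense viral or misplaced nucleic acid release type I interferon, whose receptor signals to the nucleus to switch on a common set of genes. Among them, the OAS enzymes make short adenylate chains that trigger RNA decay, MX1 and MX2 are dynamin-like GTPases that block incoming viruses, EIF2AK2 (PKR) halts translation by phosphorylating eIF2α, and ISG15 is a ubiquitin-like protein that HERC5 attaches to other proteins and USP18 removes. USP18 also dampens the interferon receptor, and the levels of these genes in blood leukocytes are a standard readout of interferon exposure.

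Whole blood RNA of 28 rhesus macaques (Macaca mulatta, healthy adults of Chinese origin, 3 to 5 years of age, 14 females and 14 males) was sequenced before (24 samples) and after irradiation of the upper thorax (95 samples after Day 21 to Day 90, 53 after Day 90 and the others on Day 3 to 21). The lower dose group (LD, 12 animals, 6 of them female) received 9.8 Gy, and the higher dose group (HD, 16 animals, 8 of them female) received 10.7 Gy. The control was each animal's own sample from Day -2, before irradiation, and 24 animals (12 LD and 12 HD) have such a sample here. No unirradiated animals were followed alongside, so time, housing, repeated bleeding and treatment given after irradiation (dexamethasone for rapid breathing, and tramadol or buprenorphine for pain) cannot be told apart from the dose itself. Irradiated samples were drawn on Day 3, 6, 9, 15, 21, 30, 40, 60, 90, 120, 150, 180, 210, 240 and 270, and 8 more were drawn off the schedule, which for animals euthanized between draws was the concluding sample. Only surviving animals gave late samples: 12 of the animals with a control gave a Day 120 sample and 6 a Day 270 sample.

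Total counts per sample ran from 2840219 to 23638161, with a median of 8227563. The numbers in the library names fall into 3 series, called A, B and C here; what they stand for is not given in the sources used here. Of the control samples 20 were of series A and 4 of series C, whereas after Day 90 no sample was of series A. B cell markers fell after irradiation. Levels are in CPM (the usual per-library measure, here counts over the scaled library size). MS4A1, CD79A, CD79B and PAX5 had a median summed level of 1113 CPM in the control samples. It was 484 CPM on Day 3 to 21 and 200.1 CPM after Day 90, so cell type marker RNA was not constant. In whole blood, fewer cells of a type and less RNA per cell cannot be told apart. A sample that stood apart was that of HD animal B2007 on Day 40, in which 4 erythroid markers (HBB, ALAS2, SLC4A1 and AHSP) summed to 303082 CPM against at most 10117 in the control samples.

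The 10 genes lie on 6 chromosomes of the Mmul_10 assembly. OAS1, OAS3 and OAS2 are neighbours on chromosome 11 (chr11:112632314-112654759, chr11:112661047-112689871 and chr11:112695363-112728626, all on the plus strand), with OASL farther along the same chromosome (chr11:120825244-120844960, minus strand). MX1 (chr3:5189230-5224218) and MX2 (chr3:5231296-5275461) lie next to each other on the minus strand of chromosome 3. ISG15, the smallest, has 641 exonic bases (chr1:223403948-223405102, minus strand), USP18 lies at chr10:33831575-33860643 on the minus strand, HERC5 at chr5:86845034-86895418 and EIF2AK2 at chr13:71756058-71807916, the last pair on the plus strand. MX2, HERC5 and EIF2AK2 each overlap a gene of the opposite strand in the annotation, and since it is not stated whether counting used strand, reads of such partners may be included.

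Promoters are shown for ISG15, HERC5, OASL and MX1, which rose most strongly on Day 3 to 21, and for EIF2AK2, which carries its match across the gene start. Each is 250 bases before to 50 bases after the annotated start from RefSeq (Mmul_10), written along the gene, and capitals mark matches on either strand to a pair of GAAA repeats with 1 base (GAAANGAAA) or 2 bases between them, the kind of spaced repeat that interferon-activated factors are known to bind. They cover chr1:223405053-223405352 (minus strand), chr5:86844784-86845083 (plus), chr11:120844911-120845210 (minus), chr3:5224169-5224468 (minus) and chr13:71755808-71756107 (plus).
ISG15: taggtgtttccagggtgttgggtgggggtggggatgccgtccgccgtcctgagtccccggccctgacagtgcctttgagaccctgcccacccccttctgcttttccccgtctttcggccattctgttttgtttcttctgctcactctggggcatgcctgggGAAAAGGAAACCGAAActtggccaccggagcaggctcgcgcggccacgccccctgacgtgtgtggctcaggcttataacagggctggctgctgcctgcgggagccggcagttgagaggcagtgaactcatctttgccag
HERC5: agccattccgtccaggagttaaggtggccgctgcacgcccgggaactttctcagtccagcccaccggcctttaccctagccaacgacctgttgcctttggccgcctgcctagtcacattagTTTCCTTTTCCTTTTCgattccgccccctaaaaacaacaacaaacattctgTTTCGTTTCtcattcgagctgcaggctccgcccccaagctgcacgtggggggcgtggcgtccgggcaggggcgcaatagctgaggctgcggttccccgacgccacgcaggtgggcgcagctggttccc
OASL: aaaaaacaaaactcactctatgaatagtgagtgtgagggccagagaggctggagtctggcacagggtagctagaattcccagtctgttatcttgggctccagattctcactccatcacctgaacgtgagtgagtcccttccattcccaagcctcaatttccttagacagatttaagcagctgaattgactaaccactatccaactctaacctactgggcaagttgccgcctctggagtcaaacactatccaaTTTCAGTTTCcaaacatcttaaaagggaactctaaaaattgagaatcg
MX1: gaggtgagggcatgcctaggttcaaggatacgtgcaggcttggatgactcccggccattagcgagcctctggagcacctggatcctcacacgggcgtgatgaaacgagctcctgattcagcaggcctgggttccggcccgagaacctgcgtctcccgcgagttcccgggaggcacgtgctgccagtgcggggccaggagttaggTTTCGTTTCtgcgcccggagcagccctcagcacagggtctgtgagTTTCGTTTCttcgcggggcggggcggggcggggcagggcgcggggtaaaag
EIF2AK2: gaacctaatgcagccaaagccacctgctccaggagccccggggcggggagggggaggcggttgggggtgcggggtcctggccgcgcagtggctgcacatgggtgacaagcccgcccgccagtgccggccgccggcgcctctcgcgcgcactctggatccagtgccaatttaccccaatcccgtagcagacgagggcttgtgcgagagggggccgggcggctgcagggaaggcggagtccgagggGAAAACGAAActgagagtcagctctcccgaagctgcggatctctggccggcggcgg
Counting the first base of the gene as 0, the overlapping ISG15 matches span -89 to -80 and -83 to -74, the HERC5 matches span -129 to -120, -123 to -114 and -78 to -70, the OASL match spans 2 to 11, the MX1 matches span -46 to -38 and -1 to 7, and the EIF2AK2 match spans -6 to 3. The repeat with 2 bases between, or its reverse complement, was found in OASL, ISG15, HERC5 and EIF2AK2, and in 729 of 20769 promoters of the same length (3.51%). The same repeat followed directly by CT was found in ISG15, HERC5 and EIF2AK2, and in 52 of all promoters (0.250%). GAAANGAAA, which was searched for after the sequences had been read, was found in OAS2, MX1, MX2 and HERC5, and in 706 (3.40%). OAS1, OAS3 and USP18 held neither spacing in this window, and 7 of the 10 genes held at least 1 of them against 1343 of all promoters (6.47%).

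Before irradiation, the synthetase OAS2 and the GTPases MX2 and MX1 had the highest levels per exonic length, and USP18 the lowest. In CPM per 1000 exonic bases, scaled to the same sum in every sample, the medians of the 24 control samples were 87 for OAS2, 76 for MX2, 68.1 for MX1 and 64.3 for OAS3. EIF2AK2 followed at 31.7 and OASL at 19.7, and the remaining 4 genes lay between 7.6 (USP18) and 14.2 (OAS1). Neighbours in this order overlapped in their ranges over animals. The spread between animals differed by gene: among controls the highest CPM was 20.3 times the lowest for ISG15, 17.9 times for OASL and 14.4 times for HERC5, but 3.33 times for USP18 and 3.34 times for EIF2AK2. ISG15 was also the least deeply counted, with 3 counts in the lowest control, a median of 34 over all samples and 0 in 5 irradiated samples, so its CPM values carry the most counting error.

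**Figure D1:**
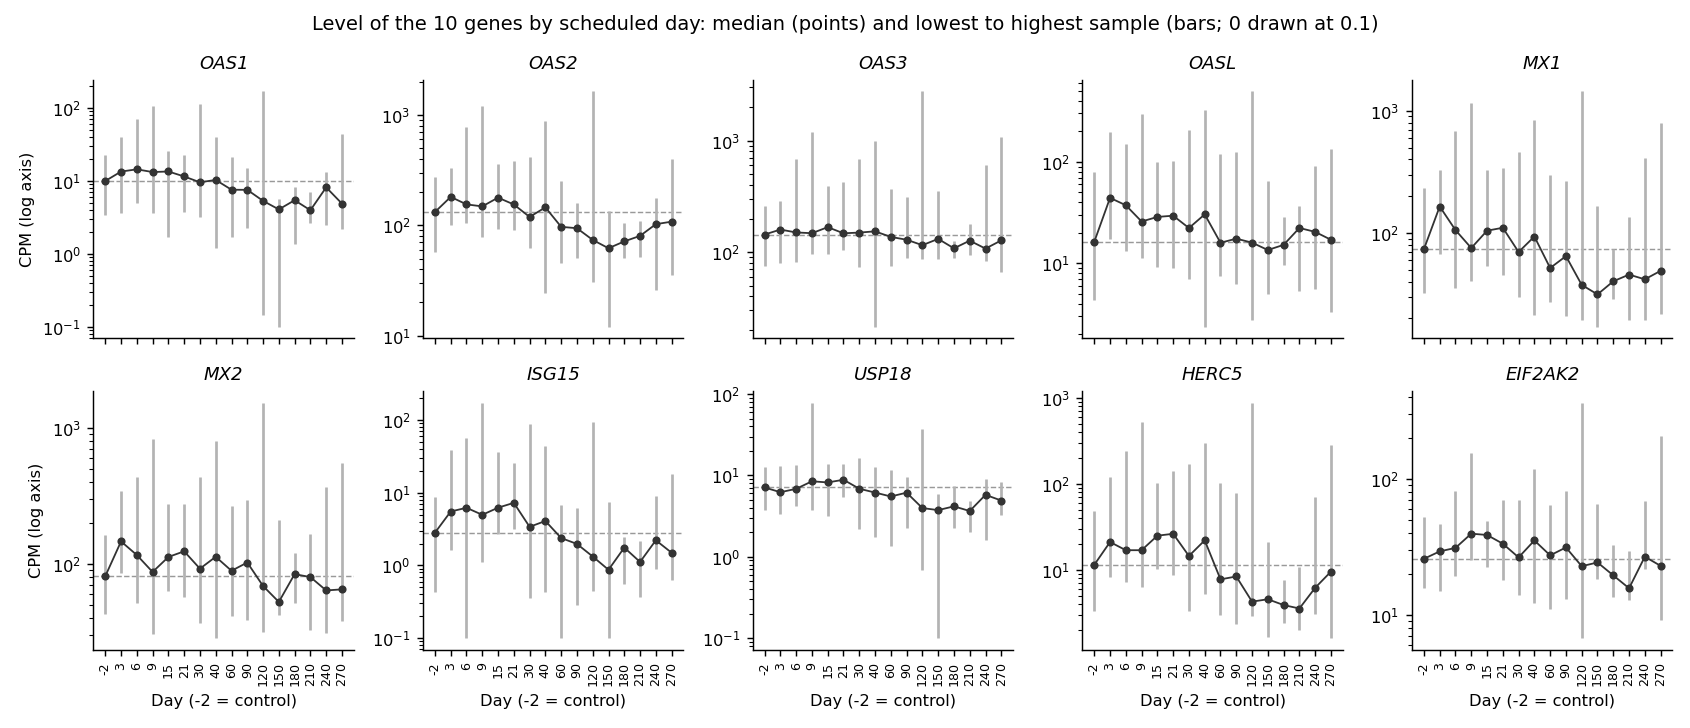
Level of each gene in CPM (log axis) on each scheduled day, Day -2 being the control. Points are medians over animals, bars run from the lowest to the highest sample (values of 0 are drawn at 0.1), and the dashed line is the control median. The medians of ISG15, HERC5, OASL, MX2, OAS3 and EIF2AK2 lie above their control medians on every day from Day 3 to Day 40. Those of OAS1, OAS2, OAS3, MX1, ISG15, USP18 and HERC5 lie below on every day from Day 60 to Day 270. The tops of the bars show single samples far above the rest.

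In the weeks after irradiation (Day 3 to 21, counts of an animal summed and set against its own control), 5 of the 10 genes rose: ISG15, its ligase HERC5, OASL, MX1 and MX2. A gene is called changed here if it passed an adjusted p of 0.05 (edgeR's quasi-likelihood test, pairing by animal, adjusted over all tested genes) and differed by 1.5-fold or more. None of the 10 was called lower. Over all tested genes 5.79% were called higher and 1.75% lower. The median log2 fold change of the 10 genes was 0.57, beside -0.02 over all genes.

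ISG15, the modifier itself, was at 0.453 CPM in the lowest, 2.94 in the median and 9.22 in the highest control, and at 2.69, 7.29 and 39.2 CPM on Day 3 to 21. The ranges overlapped, but 23 of 24 animals were above their own control, and the log2 fold change was 1.36 (SE 0.20, adjusted p 3.06e-06 by edgeR). HERC5, which joins ISG15 to its targets, went from 3.48, 11.9 and 49.9 CPM in the lowest, median and highest control to 11.4, 32.1 and 139 CPM, a log2 fold change of 1.20 (SE 0.21, adjusted p 3.92e-05 by edgeR) with 21 of 24 animals higher. USP18, which takes ISG15 off again, was at 3.96, 7.43 and 13.2 CPM in controls and 4.89, 8.09 and 22.4 CPM after irradiation. Its log2 fold change of 0.12 (SE 0.09, adjusted p 0.266) did not pass the test, and 15 of 24 animals were higher.

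The MX genes rose in most animals. MX1 was at 33.7, 77.1 and 242 CPM (lowest, median, highest) in controls and 65.6, 142 and 393 CPM on Day 3 to 21, with a log2 fold change of 0.81 (SE 0.14, adjusted p 3.40e-05 by edgeR) and 20 of 24 animals higher. MX2 was at 45.2, 84.98 and 171 CPM in controls and 75.4, 134.2 and 317 CPM after irradiation, with a log2 fold change of 0.68 (SE 0.10, adjusted p 4.54e-06 by edgeR) and 22 of 24 animals higher.

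Within the OAS family the largest difference was that of OASL, an OAS relative that lacks synthetase activity. It was at 4.59, 17.1 and 82.3 CPM in controls and 16.5, 38.3 and 106.2 CPM on Day 3 to 21 (log2 fold change 1.06, SE 0.19, adjusted p 6.15e-05 by edgeR, 20 of 24 animals higher). The enzymes OAS1, OAS2 and OAS3 and the kinase gene EIF2AK2 differed by less than 1.5-fold, with log2 fold changes of 0.39 (SE 0.11), 0.47 (SE 0.08), 0.30 (SE 0.09) and 0.42 (SE 0.08). Their adjusted p values were nevertheless small, the largest being 0.00993 for OAS3, and 18 to 21 of 24 animals were higher. In all 24 animals the Day 3 to 21 samples included the library series of the control. Erythroid markers moved in the same window, with 4 of 4 called higher and a median summed level of 15319 CPM against 5537 in controls, and so did platelet markers, with 3 of 4 called higher (2420 against 1469 CPM). Of 5 T cell markers none was called (719 against 678 CPM), and 1 of 5 monocyte markers was higher (1294 against 1375 CPM in sum). The part of these shifts in the rise was not tested.

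**Figure D2:**
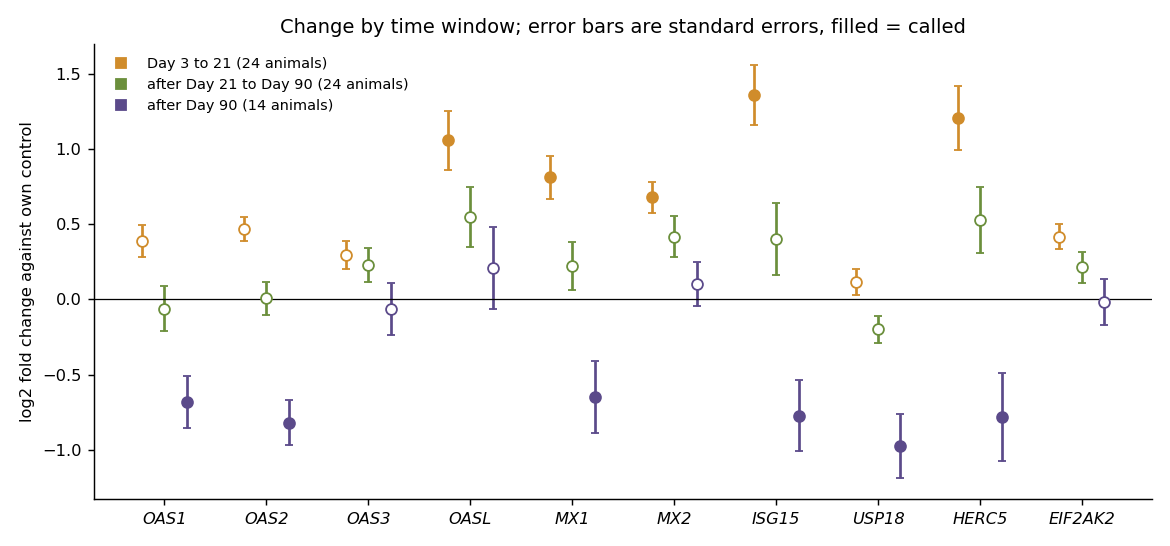
Log2 fold change of each gene against the animal's own control (vertical axis) in 3 time windows, with standard errors from edgeR; filled points passed the test and the fold threshold. ISG15, HERC5, OASL, MX1 and MX2 are filled above 0 on Day 3 to 21, no gene is filled after Day 21 to Day 90, and OAS1, OAS2, MX1, ISG15, USP18 and HERC5 are filled below 0 after Day 90.

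Day by day, the medians of OASL, MX1 and MX2 were highest on Day 3 and those of ISG15 and HERC5 on Day 21. On Day 3 the 5 genes named above were called higher, with log2 fold changes from 0.84 (HERC5, SE 0.21) to 1.27 (OASL, SE 0.16), where 6.89% of all genes were called higher. MX1 had a median of 165 CPM on Day 3 against 73.7 in controls (log2 fold change 0.99, SE 0.12), and 22 of 24 animals were higher. On Day 6 the same 5 genes were called higher, beside 6.04% of all genes. On Day 9 the called genes were ISG15, HERC5 and EIF2AK2 (5.15% of all genes). EIF2AK2 reached a log2 fold change of 0.70 (SE 0.14) then, with 21 of 24 animals higher. On Day 15 OASL, MX1, ISG15 and HERC5 were called higher (5.11% of all genes), and on Day 21 OASL, ISG15 and HERC5 (7.65%). ISG15 on Day 21 had a median of 7.05 CPM against 2.81 in the same animals' controls, a log2 fold change of 1.25 (SE 0.17) with 23 of 24 animals higher. No gene of the 10 was called lower on any of these days, when 4.62% (Day 3), 5.48% (Day 6), 2.43% (Day 9), 0.894% (Day 15) and 2.73% (Day 21) of all genes were. No gene of the 10 was called by edgeR between consecutive draws from Day 3 to Day 21, with 0, 2, 0 and 2 genes at an unadjusted p under 0.05 in the 4 steps. Of all genes 0.836%, 3.09%, 2.64% and 0.516% were called higher and 1.55%, 1.51%, 0.218% and 0.524% lower in these steps.

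Between Day 21 and Day 60, 2 genes fell in the first step, 1 rose in the second and 7 fell in the third. From Day 21 to Day 30 ISG15 fell by 0.97 (SE 0.24) and HERC5 by 0.97 (SE 0.21) on the log2 scale, each lower in 24 of 28 animals, where 4.02% of all genes were called lower and 3.07% higher. On Day 30 none of the 10 differed from control by the test, with 4.57% of all genes called higher and 1.33% lower. HERC5 was then higher again on Day 40 than on Day 30 (log2 fold change 0.85, SE 0.31, edgeR adjusted p 0.0483, 19 of 24 animals higher), where 1.57% of all genes were called higher and 3.39% lower.

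On Day 40 OASL, MX1, MX2, ISG15 and HERC5 were again called higher than control, beside 4.07% of all genes, and none lower (2.85%). HERC5 had a median of 21.9 CPM against 11.4 in controls (log2 fold change 1.05, SE 0.26, 20 of 24 animals higher), and MX2 112.8 against 81.2 CPM (0.62, SE 0.20, 20 of 24). Without the erythroid-rich Day 40 sample of B2007, a setting chosen after the data had been seen, the same 5 genes and EIF2AK2 (0.59, SE 0.12, adjusted p 2.80e-04 by edgeR) were called higher, MX1 at 0.71 (SE 0.19) and MX2 at 0.73 (SE 0.16). Only 4 of the 24 Day 40 samples were of the library series of their control, and in those 4 animals none of the 10 was called. The log2 fold changes of ISG15 (2.01), HERC5 (1.80), MX1 (1.43) and OASL (1.24) were larger there, but the animals were unlike. The mean log2 difference of the 10 genes from the own control was 3.14 in B2005, 0.89 in B2504, -0.03 in B2003 and -0.07 in B2503.

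From Day 40 to Day 60, 7 of the 10 genes fell, where 1.69% of all genes were called lower and 0.974% higher. HERC5 went from a median of 22.2 to 7.67 CPM in the 21 animals with both days, a fall of 1.5 (SE 0.22) on the log2 scale in 19 animals. MX1 went from 95.7 to 49.9 CPM, a fall of 0.99 (SE 0.15) in 20 of 21 animals. ISG15, OASL, OAS2, EIF2AK2 and MX2 fell by 0.59 to 0.96, each in 17 or 18 of 21 animals. On Day 60 and Day 90 none of the 10 was called against control, when 2.31% and 3.87% of all genes were called higher and 1.92% and 3.19% lower. At an unadjusted p under 0.05 there were 5 on Day 60 and 2 on Day 90.

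With all samples after Day 21 up to Day 90 summed, none of the 10 was called by edgeR, and 4 had an unadjusted p under 0.05. Over all tested genes 4.48% were called higher and 1.27% lower. The largest differences were those of OASL (0.55, SE 0.20), HERC5 (0.53, SE 0.22) and MX2 (0.42, SE 0.14), whose adjusted p values of 0.0262, 0.0480 and 0.0136 passed the threshold while their folds did not. OASL was at 4.60, 17.1 and 82.5 CPM (lowest, median, highest) in controls and 7.75, 24.6 and 189 CPM in this window, higher in 18 of 24 animals. OASL was called without B1002, B1004, B1006, B1501 or B1505 in turn (log2 fold change 0.59 to 0.64), and HERC5 without B1001, B1004 or B1006 (0.59 to 0.60). DESeq2 called 1 gene higher in this window.

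After Day 90 the picture was split. OAS1, OAS2, MX1, ISG15, USP18 and HERC5 were called lower than control in the 14 animals with a control and late samples. OAS3, OASL, MX2 and EIF2AK2 were not. The animals comprised the whole LD group but only B2502 and B2504 of the HD group. B2504 gave a single late sample (Day 94), so from Day 120 on B2502 alone stood for HD in these tests. Over all tested genes 18.5% were called lower and 14.0% higher, or 2548 lower and 1919 higher, a split that turned to 1887 and 2270 with TMM scaling and to 1784 and 2434 with DESeq2. The median log2 fold change of the 10 genes was -0.67, beside -0.13 over all genes.

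USP18, which had not risen early, fell in all 14 animals. It was at 3.73, 6.75 and 12.4 CPM (lowest, median, highest) in their controls and 0.679, 3.60 and 6.02 CPM after Day 90 (log2 fold change -0.98, SE 0.21, adjusted p 8.63e-04 by edgeR). OAS2 went from 56.9, 130.8 and 191 CPM to 39.3, 67.5 and 111.05 CPM (-0.82, SE 0.15, lower in 13 of 14 animals), and OAS1 from 3.36, 8.31 and 18.7 CPM to 2.69, 5.47 and 8.30 CPM (-0.68, SE 0.17, 13 of 14). ISG15 went from 0.938, 2.47 and 8.69 CPM to 0.481, 1.39 and 4.01 CPM (-0.77, SE 0.24), HERC5 from a median of 10.5 to 5.41 CPM (-0.78, SE 0.29) and MX1 from 73.8 to 37.9 CPM (-0.65, SE 0.24), each lower in 12 of 14 animals. The HERC5 and MX1 calls were close to the threshold. HERC5 lost it (adjusted p 0.0512 to 0.0633) when B1001, B1004, B1006, B1502 or B1504 was left out, and MX1 (0.0515 to 0.0568) without B1004, B1005, B1006, B1501 or B1505. With TMM scaling HERC5 (adjusted p 0.0599) and MX1 (0.0665) were not called, and with DESeq2 OAS1 (-0.57) and MX1 (-0.53) were short of 1.5-fold.

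The other 4 genes did not follow. OASL had a median of 13.9 CPM in controls and 20.9 CPM after Day 90 (log2 fold change 0.21, SE 0.27), MX2 77.5 and 74.2 CPM (0.10, SE 0.15), OAS3 141 and 131.5 CPM (-0.06, SE 0.17) and EIF2AK2 24.9 and 23.7 CPM (-0.02, SE 0.15). Their adjusted p values were 0.530 to 0.926.

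The late samples cannot be told apart from their library series, because only 1 of the 14 animals had a late sample of its control's series. A single model over all samples had animal, window and series as terms. It counted repeated samples of an animal singly and included animals without a control, so it differs from the paired fit in more than series. Its late log2 fold changes were 0.32 for OAS1, 0.18 for MX1, 0.64 for ISG15, 0.21 for HERC5 and -0.10 for OAS2. USP18 stayed called lower at -0.64 in that model, and OASL was called higher at 0.90. Cell type markers also differed after Day 90. Their calls are from the paired fit of 14 animals, whereas the summed levels are medians over all 53 late samples and all 24 controls. B cell markers were lower in 4 of 4 (median summed level 200.1 against 1113 CPM) and T cell markers in 3 of 5 (517 against 678 CPM). Higher were 3 of 5 monocyte markers (2562 against 1375 CPM) and 3 of 4 neutrophil markers (4595 against 2216 CPM). So were 4 of 4 platelet markers (2420 against 1469 CPM). The 5 NK cell markers, GZMB among them, had a median summed level of 675 against 849 CPM. Of 4 tested markers of plasmacytoid dendritic cells, the main interferon producers of blood, IL3RA, TCF4 and GZMB were called lower. GZMB is the same gene as in the NK cell list. The more specific LILRA4 was not called (log2 fold change -0.81, SE 0.36, adjusted p 0.0660 by edgeR). The median summed level of all 5 listed markers, tested or not, was 224 against 440 CPM. The part of these shifts in the lower levels was not tested.

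**Figure D3:**
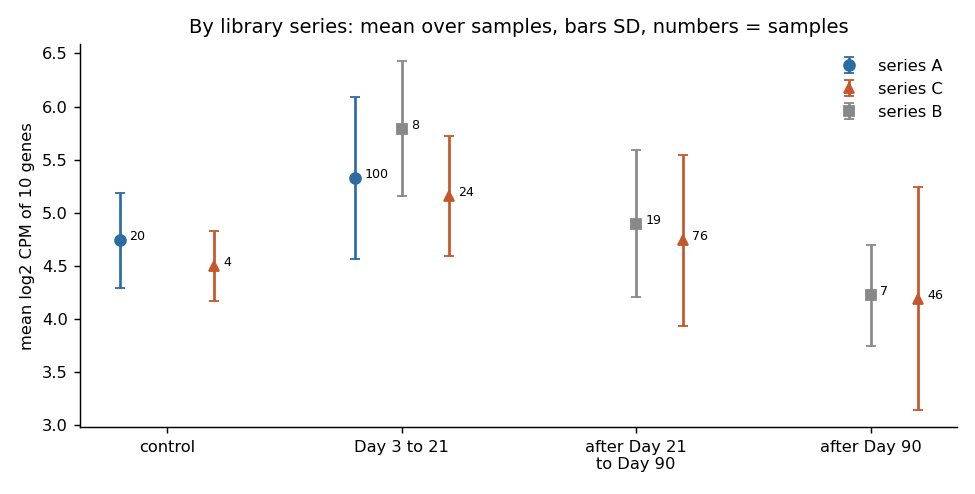
Mean log2 CPM of the 10 genes (vertical axis) over the samples of each time window, separated by library series; bars are standard deviations over samples and numbers give the samples. Controls are mostly of series A (mean 4.74, 20 samples) and late samples mostly of series C (mean 4.19, 46 samples), while the 4 controls of series C have a mean of 4.50.

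The late days were also tested one by one, but on Day 120, 150, 180 and 210 none of the animals (0 of 12, 9, 6 and 6) had a sample of its control's library series. With series as a covariate 0, 2, 0 and 1 of the 10 genes were called lower on these days. The share of all genes called by that model is not given here. Without that term 6 of the 10 genes were called lower on Day 120 in 12 animals (OAS1, OAS2, MX1, ISG15, USP18 and HERC5), where 19.1% of all genes were called lower and 12.7% higher. OAS2 had a median of 127 CPM in the controls of these animals and 67.5 CPM on Day 120 (log2 fold change -0.92, SE 0.14, lower in 12 of 12), and ISG15 2.62 and 1.14 CPM (-1.16, SE 0.30). OAS1, OAS2 and USP18 were called lower on Day 150 (19.5% of all genes lower, 12.0% higher). On Day 180 these were OAS2, MX1, USP18 and HERC5, when 9.86% of all genes were called lower and 8.81% higher. HERC5 was at 3.87 CPM then against 11.3 in controls (-1.55, SE 0.25, lower in 6 of 6 animals). On Day 210, OAS1, OAS2, ISG15, USP18 and HERC5 were called lower (16.9% of all genes lower, 12.8% higher).

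Of the 10 genes 3 rose from Day 210 to Day 240, and none was called from Day 240 to Day 270. From Day 210 to Day 240 ISG15 rose from a median of 1.12 to 2.22 CPM (log2 fold change 1.55, SE 0.45, 6 of 6 animals), HERC5 from 3.53 to 6.15 CPM (1.24, SE 0.34, 6 of 6) and EIF2AK2 from 15.6 to 26.6 CPM (0.79, SE 0.24, 5 of 6), where 8.17% of all genes were called higher and 4.64% lower. Between the other consecutive draws from Day 60 on none of the 10 was called by edgeR, and 1 had an unadjusted p under 0.05 (from Day 150 to Day 180). Of all genes 0.211% were called higher and 0.109% lower from Day 60 to Day 90, 7.79% and 7.72% from Day 90 to Day 120, 3.05% and 4.95% from Day 180 to Day 210, and 0.0% in each direction in the remaining 3 steps. None of the 10 was called against control on Day 240, when 3.26% of all genes were called higher and 3.51% lower, or on Day 270, when 0.0% were called higher and 0.00727% lower. By edgeR none reached an unadjusted p under 0.05 on either day. All 6 animals were of another series than their control on each of these days.

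The windows were also set against each other in animals with samples in both. From the early to the medium window ISG15 fell by 1.02 (SE 0.23), HERC5 by 0.81 (SE 0.22) and MX1 by 0.64 (SE 0.15) on the log2 scale, lower in 23 or 24 of 28 animals, where 2.3% of all genes were called lower and 1.61% higher. In the 8 animals with series C samples in both windows, none of the 10 was called and the 3 differences were -0.12, -0.44 and -0.26. From the early to the late window OAS1, OAS2, MX1, ISG15, USP18 and HERC5 were lower (20.2% of all genes lower, 12.0% higher), by 0.93 to 1.89 in 14 or 15 of 16 animals. The fall from the medium to the late window could be tested within series C in all 16 animals, and there OAS2 (-0.59), MX1 (-0.66), USP18 (-0.62) and HERC5 (-1.11) were called lower, the 4 genes that were also called with all samples (-0.67, -0.64, -0.65 and -1.11), where 12.6% of all genes were called lower and 9.38% higher. Of the 4 calls with all samples, DESeq2 kept HERC5 and USP18 and TMM scaling kept HERC5 and OAS2, and without the pairing by animal 0 were called.

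Single samples held very high levels of nearly all 10 genes. Taking for each of the 256 irradiated samples with a control the mean log2 difference of the 10 genes from it, 8 samples of 8 animals stood at 2 or more, a 4-fold rise, and 33 samples of 14 animals at 1 or more. The 8 were of 3 LD and 5 HD animals, drawn on Day 6 (1 sample), Day 9 (3 samples), Day 15, Day 30, Day 40 and Day 270 (1 each).

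The largest was that of LD male B1003 on Day 9, with a mean difference of 3.60. In it ISG15 was at 173 CPM against 2.48 in the control of the animal, HERC5 at 529 against 16.3, MX1 at 1168 against 114.5 and USP18 at 77.9 against 7.96 CPM. The mean difference of that animal was 0.92 on Day 6 and 0.52 on Day 15. In HD male B2005 on Day 40, the last sample of that animal, HERC5 was at 302 against 7.28 CPM and MX1 at 837 against 61.8 CPM, but USP18 only at 12.7 against 7.28 CPM. HD female B2502 rose to 1.82 on Day 240 and 2.98 on Day 270, when HERC5 was at 280 against 10.6 CPM, MX1 at 802 against 74.1 CPM and USP18 at 7.15 against 6.82 CPM. That Day 270 sample was also unusual in cell type markers. Erythroid markers summed to 76999 CPM against at most 10117 in the control samples. T cell markers summed to 159 CPM against at least 420, and B cell markers to 78.4 CPM against at least 260. The part of this in its high levels was not tested. In 5 of the 8 samples USP18 was the gene that differed least.

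The highest mean level of the 10 genes was in an animal without a control sample. In HD female B2507 on Day 120, OAS3 was at 2761 CPM, OAS2 at 1632, MX2 at 1518, MX1 at 1441 and HERC5 at 873 CPM, and the mean log2 CPM of the 10 genes was 8.95 against at most 5.66 in any control sample. The same animal was also among the highest on Day 6 (7.17) and Day 9 (7.38).

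At the other end, 17 samples of 10 animals had a mean difference of -1 or lower, none of them from Day 3 to 21. The lowest was the erythroid-rich sample of B2007 on Day 40 (-2.55), where T cell markers summed to 88.4 CPM against at least 420 in the control samples. All 10 genes were above the own control in 35 of 120 samples from Day 3 to 21 and below it in none, while after Day 90 they were all above in 1 and all below in 11 of 50 samples.

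**Figure D4:**
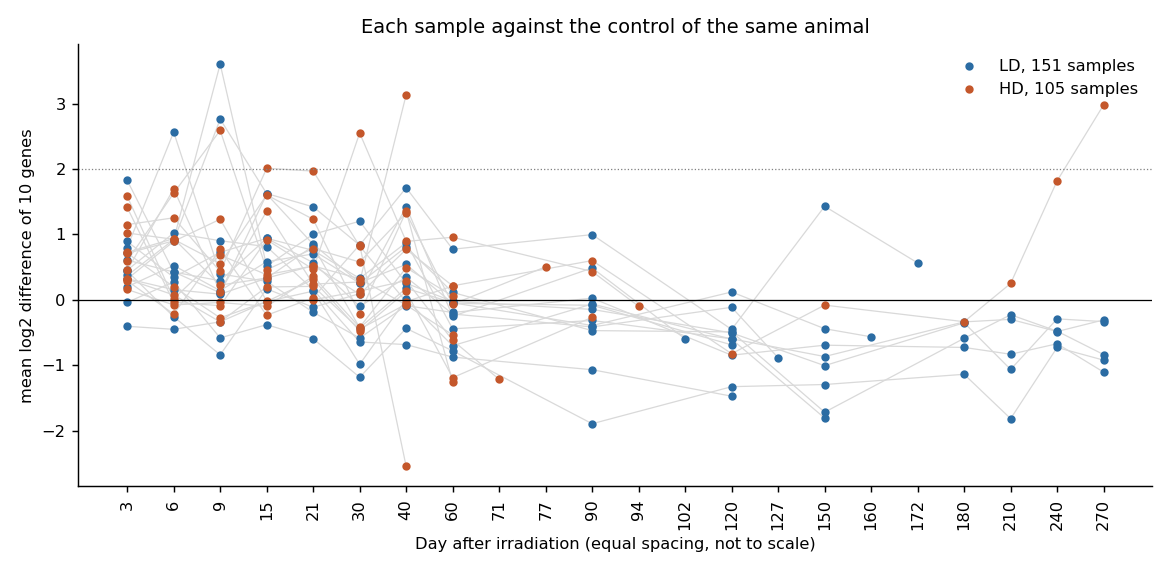
Mean log2 difference of the 10 genes from the own control (vertical axis) in each of 256 samples, by day (equal spacing) and dose group (colour); grey lines join the samples of an animal and the dotted line marks a 4-fold rise. The 8 samples at or above the dotted line fall on Day 6, 9, 15, 30, 40 and 270, and the lowest point is that of B2007 on Day 40.

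No difference between the doses passed the test in these 10 genes. Dose was partly tied to library series. All LD controls and LD samples of Day 3 to 21 were of series A, whereas the 4 controls of series C and all series B and C samples of Day 21 were HD. Over Day 30 to 60 only 4 of 24 animals, all HD, had samples of their control's series, so dose and series cannot be fully told apart there. On Day 3 to 21 the difference between HD and LD in log2 fold change lay between -0.16 (USP18) and 0.34 (OASL, SE 0.39), and neither any of the 10 nor any of all tested genes was called (0.0% in each direction). ISG15 rose by a mean of 1.49 in HD (range 0.20 to 3.59, 12 animals) and 1.39 in LD (range -0.02 to 3.89, 12 animals). Over Day 30 to 60, where 3.37% of all genes were called higher in HD and 0.56% lower, the largest differences of the 10 were those of OASL (0.75, SE 0.38, adjusted p 0.228 by edgeR) and ISG15 (0.69, SE 0.48, adjusted p 0.418). OASL was above control in 11 of 12 HD animals and 7 of 12 LD animals. OAS3 had the smallest p of the 10 (difference 0.46, SE 0.21, unadjusted p 0.0389, adjusted p 0.187). These intervals are wide, and missing the threshold does not show that the doses acted alike.

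Male and female animals did not differ either in a way that passed the test. No gene of the 10 was called on Day 3 to 21 or over Day 30 to 60 (0.0% of all genes in each direction), and the differences between males and females in log2 fold change ran from -0.25 (OASL) to -0.01 (MX2) and from -0.42 (MX1) to -0.07 (EIF2AK2). None was called between the sexes or dose groups before irradiation, when 0.0145% and 0.0509% of all genes were called higher and lower in males and 0.0% between doses. The largest control difference was that of OAS1, higher in males by 0.57 on the log2 scale.

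The final off-schedule sample of 8 animals was set against the sample before it, and no gene of the 10 was called (0.0% of all genes in either direction). ISG15 was lower in 7 of the 8 animals, with a log2 difference of -1.06 (SE 0.41, unadjusted p 0.0212, adjusted p 1.00 by edgeR), and was the only gene of the 10 with an unadjusted p under 0.05. In LD animals it went from 1.73 to 0.768 CPM (B1001, Day 120 to 127), 2.28 to 1.34 (B1002, Day 150 to 160), 3.68 to 1.48 (B1504, Day 90 to 102) and 7.48 to 4.13 CPM (B1506, Day 150 to 172). In HD animals it went from 6.66 to 0.395 CPM (B2004, Day 60 to 71), 1.32 to 2.32 (B2501, Day 60 to 77), 3.88 to 1.13 (B2504, Day 90 to 94) and 1.68 to 1.38 CPM (B2506, Day 120 to 129).

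The 10 genes moved together over samples, and USP18 least. With log2 CPM centred within each animal, the correlation of each gene with the mean of the other 9 over all samples ran from 0.630 (USP18) to 0.936 (MX1), as a description of samples that share animals, libraries and cell composition. The closest pair was OASL and MX1 (0.906) and the loosest OAS3 and USP18 (0.419). Outside the list, the genes most like its mean were DDX60 (0.893), IFI6 (0.880), DHX58 (0.871), IFIT2 (0.870), IFI44 (0.867), DDX58 (0.859), XAF1 (0.854), EPSTI1 (0.848), TMPRSS2 (0.837) and IFI44L (0.836). The median over all tested genes was 0.05, and 0.662% of them were above 0.5.

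The other genes of the pathway were taken from lists of its steps. Of the 5 genes that work beside HERC5 in ISG15 transfer (the activating enzyme UBA7, the conjugating enzyme UBE2L6, and the ligases HERC6, TRIM25 and ARIH1), none was called in any window. On Day 3 to 21 HERC6 differed by 0.32 (SE 0.07, 20 of 24 animals higher), UBE2L6 by 0.24 (SE 0.06), TRIM25 by -0.03 (SE 0.07), ARIH1 by -0.09 (SE 0.03) and UBA7 by -0.19 (SE 0.06). After Day 90 UBA7 (-0.57, SE 0.10) and HERC6 (-0.55, SE 0.10) were lower in 14 of 14 animals, short of 1.5-fold, and UBE2L6 was at 0.37 (SE 0.15). At an unadjusted p under 0.05 there were 4, 2 and 3 of the 5 genes in the early, medium and late window by edgeR.

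Neither ABCE1 nor PDE12, a phosphodiesterase that breaks down the adenylate chains, was called in any window, with 2, 1 and 1 of them at an unadjusted p under 0.05 by edgeR. PDE12 was at -0.11 (SE 0.04) on Day 3 to 21 and -0.49 (SE 0.12) after Day 90, lower in 13 of 14 animals. Of 7 genes around PKR and eIF2α, the related kinase gene EIF2AK1, which responds to haem, rose by 0.65 (SE 0.05) on Day 3 to 21 in 24 of 24 animals, beside the erythroid markers described above. After Day 90 PPP1R15A, a phosphatase subunit that opposes these kinases, rose by 1.23 (SE 0.13) in 14 of 14 animals, from a median of 84.1 to 220.96 CPM, and the PKR activator gene PRKRA fell by 0.73 (SE 0.19). PPP1R15A was already at 0.54 (SE 0.07) in the medium window, higher in 23 of 24 animals. The other 4 (DNAJC3, EIF2S1, EIF2AK3 and EIF2AK4) were called in no window with log2 differences from -0.23 to 0.18.

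Of 6 receptor and signalling genes (IFNAR1, IFNAR2, JAK1, TYK2, STAT2 and IRF9), none was called on Day 3 to 21, when IFNAR2 differed by 0.27 (SE 0.05, 23 of 24 animals higher) and JAK1 by -0.32 (SE 0.06, 21 of 24 lower). In the medium window none was called, with IFNAR2 at 0.47 (SE 0.05, 24 of 24 animals higher) and JAK1 at -0.41 (SE 0.07). At an unadjusted p under 0.05 there were 3 in each of these windows by edgeR. IFNAR2, a receptor chain, rose after Day 90 by 0.97 (SE 0.12) in 14 of 14 animals, from a median of 72.8 to 138.3 CPM, and STAT2 (-0.08, SE 0.18) was not called.

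Of 28 other interferon-induced genes 27 were tested, and 13 rose and none fell on Day 3 to 21, where 5.79% of all genes were called higher and 1.75% lower, with a list median of 0.50. The largest rises were those of IFIT1 (1.60, SE 0.15), IFI44L (1.59, SE 0.24) and CMPK2 (1.43, SE 0.12), which were higher in 23 or 24 of 24 animals, and the lowest values were BST2 (-0.04), ZBP1 (-0.03) and TRIM22 (0.05). In the medium window 7 were higher and none lower, beside 4.48% and 1.27% of all genes. After Day 90, 5 of the 27 were higher and 2 lower, where 14.0% of all genes were called higher and 18.5% lower. The count of higher genes was thus near the share over all genes. TRIM22 (1.17, SE 0.20), SAMD9L (1.12, SE 0.25) and SAMD9 (1.06, SE 0.29) were the highest, TRIM22 in 14 of 14 animals, while IFI27 (-0.94, SE 0.30) and SIGLEC1 (-0.65, SE 0.22) fell and BST2 was at -0.43 (SE 0.10). Late values of these genes carry the same limit of library series as those of the 10.

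**Figure D5:**
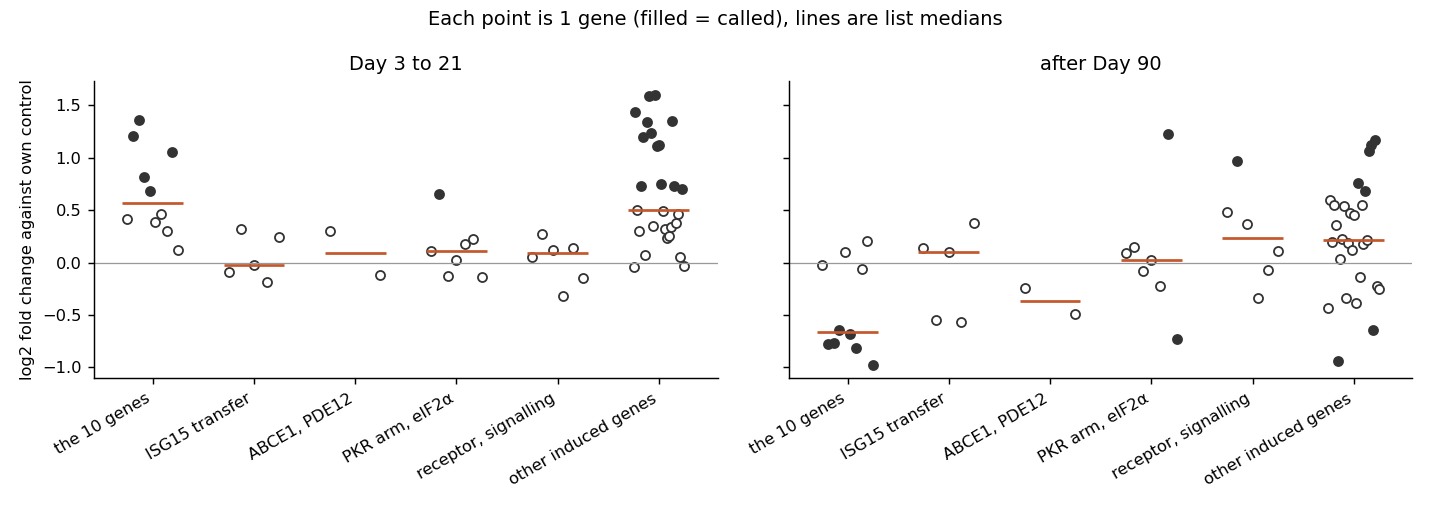
Log2 fold change against the own control (vertical axis) for each gene of 6 lists, on Day 3 to 21 (left) and after Day 90 (right); each point is a gene, filled where called, and lines are list medians. On Day 3 to 21 the filled points of the 10 genes and of the other induced genes lie above 0. After Day 90 the filled points of the 10 genes lie below 0, while the other induced genes have 5 filled points above and 2 below.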

How the data were processed

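Whole blood RNA was depleted of ribosomal RNA and sequenced from stranded libraries by the authors. Per the labels, reads were trimmed (cutadapt 2.10), aligned to Mmul_10 (STAR 2.7.6a) and counted per gene (Subread 2.0.1). Use of strand in counting is not given in the sources used here. The deposited count table holds raw counts of 21070 genes in 304 samples, and a second deposited table holds log2 values after upper quartile scaling, used for limma only.

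Genes with at least 3 counts in 80% of samples were kept. Counts were tested with edgeR 4.0.16 (quasi-likelihood, upper quartile scaling, animal as block, Benjamini-Hochberg over all tested genes), and genes were called at adjusted p at most 0.05 and fold at least 1.5. Window tests used counts summed per animal, so an animal is 1 replicate. CPM were counts over upper-quartile-scaled library sizes, with 1 common scaling over all samples for single samples. In comparisons with summed counts, both sides used the scaling of that comparison, so control values differ slightly between passages. DESeq2 1.42.0, limma 3.58.1 and TMM scaling (R 4.3.3) were alternatives. The fits with series as a covariate were single models over all samples, each sample counted singly and animals without a control included. Control and Day 3 to 21 samples of an animal deviated together (median correlation 0.588, 0.0752 to 0.838, over 96 genes, above 0.1 in 23 of 24 animals), and the pairing comes from the animal names. The scripts were tested on simulated counts.

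The 10 genes, the lists and the tests were chosen with earlier results of these data known. Genes of the short lists, the 3 highest and 3 lowest of the other interferon-induced genes in a window, and the 10 genes most like the mean are named. Some genes of the lists are not reported here.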

Additional observations from a re-analysis of the deposited data

Results flagged for a closer look

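In groups of 4 to 10 samples of a dose group and day, 4 of 60 checks of a gene found a highest or lowest sample far from the others by Dixon's ratio (the gap to the nearest sample over the whole range, on the log2 scale), and chance flags about 1 in 20 groups. All 4 were in the 8 LD samples of Day 150. OAS1 was lowest in B1502, at 0 CPM against 1.52 to 5.54 in the others (ratio 0.636), in the sample with the fewest counts of all (2840219). In B1506, OAS3 was at 354 CPM against 86.9 to 156 (ratio 0.585), MX2 at 211 against 41.96 to 63.5 (ratio 0.744) and EIF2AK2 at 65.4 against 22.1 to 36.1 (ratio 0.550). The same sample of B1506 had a mean log2 difference of 1.43 from its control, the highest on Day 150. In 200 checks, no gene moved one way in every sample of a dose group or sex and the other way in every sample of the other.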

How the results depend on the processing

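The 5 genes higher on Day 3 to 21 were called in every alternative run for that window, except MX2 with limma on the deposited values (0.57), and without any single animal (5 to 5). Among all genes, the number lower on Day 3 to 21 was 400 with no filter against 240. In the medium window, 0 members were called higher, against 1 with DESeq2, 2 in animals of the same library series and 3 with series as a covariate, and 0 to 2 without single animals. All genes called higher then numbered 378 with limma on the deposited values against 616, and lower 265 with limma, 268 with no filter, 460 in animals of the same series and 268 with series as a covariate against 175.

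In the single model with series as a covariate, 1 member was called higher and 1 lower in the late window, against 0 and 6. The late log2 fold changes of OAS1 (0.32), MX1 (0.18), ISG15 (0.64) and HERC5 (0.21) were of the opposite sign there. Since its samples and its unit also differed, the part of series alone was not tested. Under the same setting no member was lower on Day 120 or 180 (0 each) and 1 was on Day 210, while the Day 270, 40, 9, 21 and 30 counts of higher members were 4, 8, 7, 5 and 1. For the late window and these days the share of all genes called by that model is not given here. Its counts therefore have no background to be set against. In animals of the same series 0 were higher on Day 40 and 1 on Day 30, and within series C 0 were lower from the early to the medium window. DESeq2 called 5 lower on Day 150. Late against medium gave 2 lower with DESeq2 and 2 with TMM against 4. Without single animals the late window gave 4 to 6 lower, Day 180 3 to 4, Day 210 4 to 6 and Day 240 0 to 1.

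With no replicate block, that is without the pairing by animal, 2 members were higher in the medium window, 1 on Day 30 and 8 on Day 9, while 1 was lower on Day 180, 3 on Day 210, 1 from early to medium, 0 from early to late and 0 from medium to late. HERC5 then changed sign from early to late (0.41), as did OAS2 (0.32), MX1 (0.43) and HERC5 (1.23) from medium to late. In the 16 animals set early against late, late HERC5 had a median of 5.25 CPM and a maximum of 835 CPM. The part of the highest animal in these signs was not tested. The block changed no other count by over 1.5 times.

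Between all genes called higher and lower, DESeq2 gave 2377 and 1903 on Day 120 (upper quartile 1745 and 2623), 1548 and 1099 on Day 180 (1211 and 1356), 2291 and 1666 on Day 210 (1767 and 2329), 1275 and 914 on Day 240 (448 and 482), 1393 and 990 on Day 270 (0 and 1), 710 and 273 on Day 40 (559 and 392), 2140 and 1789 from early to late (1649 and 2778) and 1762 and 894 from medium to late (1290 and 1733), and on Day 60 67.6% of its calls were higher (54.6%). TMM gave 973 and 580 on Day 6 (830 and 754), 2094 and 1954 on Day 120, 2120 and 1794 on Day 210, 668 and 293 on Day 40, 1985 and 2035 from early to late and 1584 and 1059 from medium to late. MX1 with limma was not called on Day 40 (adjusted p 0.0508).

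All late genes shifted by a median of -0.13 under upper quartile scaling and -0.03 under TMM. ISG15 and USP18 counts were low, and the late windows rest on 14 animals or fewer.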

Other observations

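After Day 90, when the members OAS1, OAS2, MX1, ISG15, USP18 and HERC5 were lower, 5 of 27 other interferon-induced genes were called higher than control, where 14.0% of all genes were: TRIM22, SAMD9L, SAMD9, IRF7 (log2 fold change 0.76, SE 0.25, 10 of 14 animals) and PARP9 (0.68, SE 0.17, 12 of 14). The count of 5 of 27 is near that share over all genes and is not read as a trait of the list. IFI27 and SIGLEC1 of the same list were called lower, where 18.5% of all genes were. These values carry the same confounding with library series, and the monocyte and neutrophil markers given above were higher in the same samples.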
